A study of Mus musculus with 17 samples.

Results

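The genes described here encode the proteins of the cytosolic ribosome, chosen by symbol as those starting with Rpl or Rps and a digit, together with Rplp0, Rplp1, Rplp2 and Rpsa. Pseudogene symbols ending in a ps suffix and the Rps6k kinases were left out. The rule gave 88 genes of 26422 symbols listed. Of these, 31 encode small-subunit proteins, 46 encode large-subunit proteins and 11 lie outside the core set, namely the paralogs Rps27l, Rpl22l1, Rpl39l, Rpl3l, Rpl10l, Rpl36al and Rpl7l1, the RPS19-binding protein gene Rps19bp1, and the symbols Rps3a2 and Rps3a3, which RefSeq lists as pseudogenes, and Rps4y2, which it holds as an older symbol of Rps4l, a transcribed pseudogene.

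The cells came from small intestinal organoids grown from mice aged 1 to 6 months (C57BL/6, wild type, either sex). They were profiled by Seq-Well S3, a microwell method that tags the 3′ end of each mRNA molecule with a cell barcode and a unique molecular identifier (UMI). At day 0 there were 2 libraries of stem-enriched organoids in ENR+CV (EGF, Noggin and R-spondin 1 with CHIR99021 and valproic acid). Organoids were then moved to ENR+CD, in which DAPT replaces valproic acid and Paneth cell differentiation is favoured, giving 7 control libraries at days 0.25, 1, 2, 3, 4 and 6, with 2 at day 6. Another 8 libraries at the same days received ENR+CD with 160 nM KPT-330, an inhibitor of the nuclear exporter XPO1, with 2 at day 3 and 2 at day 6. Each library pooled cells from many organoids, and no source names separate cultures or animals for libraries of the same group, so p-values measure only the spread between these libraries.

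Ribosomal proteins are made in the cytoplasm, imported into the nucleolus and assembled there with ribosomal RNA, and the finished subunits leave the nucleus through export routes that include XPO1. Their mRNAs are among the most abundant of dividing cells, and many begin with a C followed by a run of pyrimidines, the terminal oligopyrimidine (TOP) motif through which LARP1 and mTOR tune their translation. In the intestinal crypt, proliferating progenitors are rich in ribosomes, and cells leaving the cycle take on secretory or absorptive programmes.

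Promoter sequences were matched for 65 of the 88 genes in RefSeq's table (GRCm38.p6), 77 promoters in all. The sequences below run 5′ to 3′ from 10 bases before the annotated first base of the transcript to 20 bases from it, with a pyrimidine run of at least 5 bases that begins with C in capitals. Rps15a, Rpl38 and Rps18 are shown as members lower with KPT-330 at every day, and Rpl13a for its long run. Rpl22l1 and Rps27l are shown as paralogs, and Rpl4 as the member with the most UMIs. Rpl22 and Rpl10a, also lower at every day, are not shown. Their runs began 10 and 9 bases before the first base, and a second start of each held none. The paralogs Rpl36al and Rpl7l1 and a second start of Rps27l held no run in the window. Any link between these runs and the values with KPT-330 was not tested.
Rps15a (chr7:118116128-118116157, minus strand): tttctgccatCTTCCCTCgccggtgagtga
Rpl38 (chr11:114668570-114668599, plus strand): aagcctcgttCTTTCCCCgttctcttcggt
Rps18 (chr17:33955646-33955675, minus strand): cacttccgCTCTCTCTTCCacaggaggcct
Rpl13a (chr7:45128726-45128755, minus strand): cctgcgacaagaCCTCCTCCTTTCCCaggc
Rpl22l1 (chr3:28805498-28805527, plus strand): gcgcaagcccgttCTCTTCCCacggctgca
Rps27l (chr9:66946076-66946105, plus strand): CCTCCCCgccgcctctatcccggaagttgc
Rpl4 (chr9:64173377-64173406, plus strand): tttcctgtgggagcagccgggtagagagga
In Rps15a and Rpl38 the run began exactly at the annotated first base and was 8 bases long in each. In Rpl4 no such run lay in the window. In 13 of 77 member promoters (16.9%) the annotated first base was a C that opened at least 5 pyrimidines in a row. This also counts first bases inside a run that began upstream, as in Rps18. The same held for 2.51% of all 32851 promoters and 0 of 75 promoters of mitochondrial ribosomal protein genes. Allowing the run to begin up to 10 bases to either side, 53.2% of member promoters held one, against 30.7% of all promoters and 41.3% of the mitochondrial set. The letters CCGGAAG, searched on both strands of the 300-base promoter, were present in 35.1% of member promoters and 8.86% of all, and AAGATGG in 15.6% and 6.34%. For the mitochondrial ribosomal set these shares were 34.7% and 17.3%. These matches describe the annotated starts, which may differ from the starts used in these cells.

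The 88 genes took 2742690 of 114841033 UMIs in the 19877 cells kept by the study's quality filter, or 2.39%. Libraries held between 531 and 1547 cells and between 3458887 and 12433109 UMIs. The epithelial gene Epcam had a UMI in 93.8% of cells, and the leukocyte gene Ptprc in 0.0151%. Only 14 barcodes were found in more than 1 library over 136 pairs of libraries, with at most 1 in any pair.

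Levels of the members spanned several orders of magnitude. The 7 members with at least 100000 UMIs held 56.6% of the members' UMIs, and 7 members had under 100 UMIs each. Levels are given as UMIs per 10000 UMIs of a library. Because each UMI marks the 3′ end of a molecule, they were not divided by gene length. Rpl4, whose protein lines the exit tunnel of the large subunit, averaged 40.5 ± 13.7 (SD, n = 9 untreated libraries). Rps3, in the head of the small subunit, averaged 26.1 ± 7.19, and Rpl8, a large-subunit protein near the peptidyl transferase centre, 19.2 ± 6.71. Rpl4 lay above Rps3 in 9 of 9 libraries. The lowest members that passed the filter on low counts were Rps3a3, Rpl36, Rpl23a and Rps29, with mean levels of 0.0104, 0.0106, 0.0220 and 0.0252.

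The order of levels moved with how much of each transcript's 3′ end is shared with other genes, which matters for reads that a counting pipeline may discard as ambiguous. For 87 members, 50-base windows over the last 500 bases of the transcript were searched in all annotated transcripts. The 24 members with under 25% of windows shared had a median level of 1.42 per 10000, the 28 with 25% to 75% shared had 1.30, and the 35 with 75% or more had 0.354. Spearman's rho between shared windows and level was -0.34 over 87 genes, which are not independent replicates. Rpl4 and Rps3 shared no window. Rps27, a zinc-finger protein of the small subunit, shared 98.6% of its windows and had 7 UMIs in all, whereas its paralog Rps27l shared 22.4% and had 28913. Levels of highly shared members such as Rpl7a (89.1% shared), Rps18 (88.0%) and Rpsa (85.6%) are therefore uncertain in absolute terms, and so is the order of levels between genes. How far discarded reads set the levels was not tested.

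**Figure D1:**
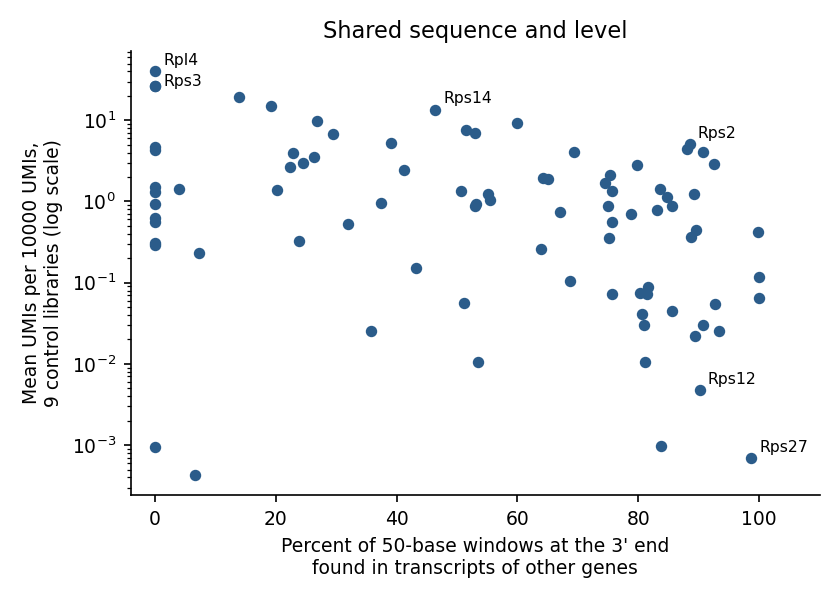
Mean level of each member over the 9 untreated libraries (vertical axis, UMIs per 10000, log scale) against the percent of its 3′ 50-base windows found in transcripts of other genes (horizontal axis), with 1 point per gene and Rpl39l, which had no UMI in these libraries, left out. Rpl4 and Rps3 lie at the top left, while Rps27, at 98.6% shared, lies near the bottom right.

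The untreated course asked how the genes behaved as stem-enriched organoids differentiated. Their summed share of UMIs was 2.91% and 3.62% in the 2 day 0 libraries, 3.79% at day 0.25 and 3.75% at day 1. It was 2.67% at day 2, 2.11% at day 3 and 2.13% at day 4, and 1.68% and 1.73% in the 2 libraries of day 6. All 4 libraries up to day 1 thus stood above every later one, and the means of day 0 and day 6 were 3.26% and 1.70%. In these sums fewer cells of a high-expressing type and less mRNA per cell cannot be told apart, so the classes of cells are taken up further on. Over the same days cells rich in cycling markers made up 62.9% and 75.5% of the day 0 libraries but 7.02% and 9.96% of the day 6 libraries, and Paneth markers took at most 0.387% of UMIs at the start and at least 11.5% at the end. Enteroendocrine-marker cells went from 0.377% and 0.614% of cells to 19.9% and 18.6%.

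**Figure D2:**
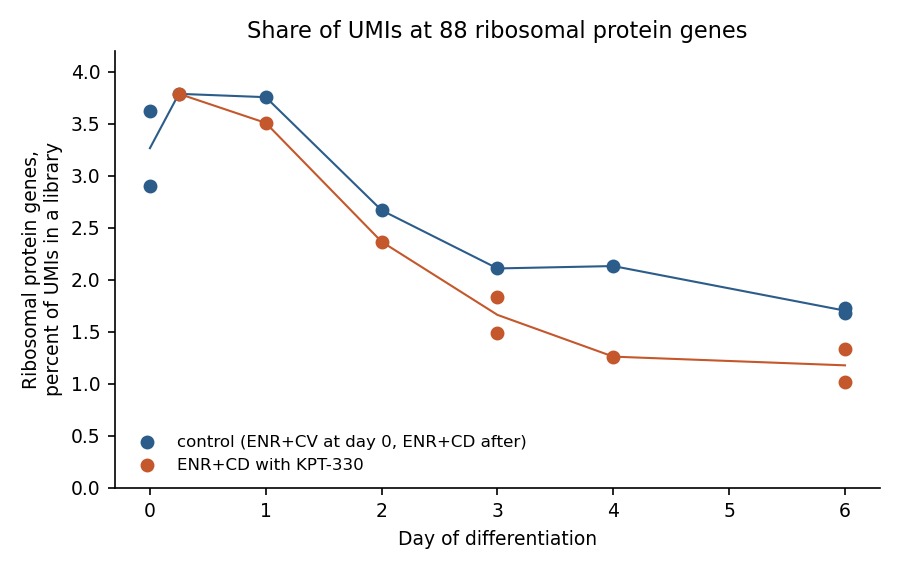
Percent of all UMIs at the 88 genes (vertical axis) by day of differentiation (horizontal axis), with 1 point per library and lines through the means of each day. Control libraries went from 3.79% at day 0.25 to 1.68% and 1.73% at day 6, and KPT-330 libraries lay lower from day 1 on, at 1.02% and 1.34% on day 6.

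Gene by gene, counts summed over the cells of each library were fitted with edgeR as a slope of log2 level per day over the 9 untreated libraries, and p-values were adjusted over all 12493 genes tested by the Benjamini-Hochberg method. Of 82 members that passed the filter on low counts, 63 fell and 0 rose at an adjusted p under 0.05. Over all genes tested, 19.9% fell and 18.6% rose. No member reached an unadjusted p under 0.05 for a rise, and DESeq2 called 67 lower (its share over all genes is not given). All 82 slopes were below 0, with a median of -0.18 per day against 0.00 for all genes. The small subunit had 22 of 29 members called lower, the large subunit 38 of 46 and the genes outside the core set 3 of 7. With the ENR+CD libraries alone, without the change of medium at day 0.25, 47 of 80 members fell, where 9.30% of all genes did.

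The fall did not begin at once. Against the mean of day 0, the median member differed by 0.30 (log2) at day 0.25, 0.11 at day 1, -0.36 at day 2, -0.74 at day 3, -0.78 at day 4 and -0.88 at day 6. The highest level was at day 0.25 for 56 of the 82 members, and the lowest at day 6 for 35, at day 3 for 23 and at day 4 for 20. Day 0.25 has 1 control library, and the same counts over all genes are not given. Days 0.25 and 1 hold only libraries numbered 1, and days 2, 3 and 4 only control libraries numbered 2, so the step between day 1 and day 2 cannot be told apart from the replicate number. Where both numbers exist in a group, 12 of 65 members with at least 1000 UMIs were lower in library 1 in all 4 groups and 1 was higher, with Rps4x and Rps4y2 among the 12.

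The steepest called slopes belonged to Rpl36, Rpsa, Rps29 and Rpl7a. Rpsa, the small-subunit protein also known as the laminin receptor precursor, was at 0.759 and 1.14 per 10000 UMIs at day 0, 2.05 at day 0.25, 1.64 at day 1, 0.707 at day 2, 0.384 at day 3, 0.515 at day 4, and 0.413 and 0.336 at day 6. All libraries from day 2 on lay below all earlier ones. Its slope was -0.32 ± 0.07 (SE) per day with an adjusted p of 0.0081 in edgeR. Rpl7a, a large-subunit protein, stood at 2.78 and 1.25 in the day 0 libraries and 0.650 and 0.636 in those of day 6, with a slope of -0.28 ± 0.06. Rpl36 (-0.40 per day) and Rps29 (-0.30 per day) rested on few molecules, 80 and 221 UMIs over all libraries.

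The most abundant members fell less steeply. Rpl4 was at 39.6 and 50.5 per 10000 UMIs at day 0, 60.0 at day 0.25, 60.6 at day 1, 37.9 at day 2, 29.5 at day 3, 35.9 at day 4, and 25.8 and 24.7 at day 6, so that both day 6 libraries lay below all others. Its slope was -0.16 ± 0.05 per day with an adjusted p of 0.0193 in edgeR. Rplp0, which anchors the acidic stalk of the large subunit, stayed between 9.07 and 12.9 in every library to day 4 and was at 5.52 and 6.46 at day 6. Its slope of -0.11 was among the shallowest called, with Rpl36al at -0.13, Rpl7l1 at -0.10 and Rpl29 at -0.10, and leaving out single libraries ended the call of Rplp0 in 5 of 9 fits.

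Of the 4 paralogs outside the core set that were tested, 3 fell and Rps27l did not pass. Rps27l, a p53-responsive paralog of Rps27, was at 2.82 and 2.95 per 10000 UMIs at day 0, 3.26 at day 0.25, 2.81 at day 1, 2.34 at day 2, 2.10 at day 3, 2.51 at day 4, and 2.62 and 2.44 at day 6. The day 6 libraries lay within the range of the earlier ones, and the slope of -0.03 ± 0.03 per day did not pass (adjusted p = 0.49, edgeR). Rpl22, an RNA-binding large-subunit protein, and its paralog Rpl22l1 both fell, at -0.21 and -0.20 per day. Rpl36al fell at -0.13, while its core partner Rpl36a, with 453 UMIs, had a slope of -0.12 that did not pass (adjusted p = 0.20). Rpl7l1, a nucleolar relative of Rpl7, fell at -0.10, and Rpl7 itself was at -0.09 (adjusted p = 0.0523). Rps19bp1 was at -0.10 (adjusted p = 0.0986), and its partner Rps19, mutated in Diamond-Blackfan anaemia, fell at -0.24. Rpl39l, Rpl3l and Rpl10l, paralogs best known from testis or striated muscle, had 3, 7 and 7 UMIs in all and were not tested, nor was Rps3a2 with 10.

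**Figure D3:**
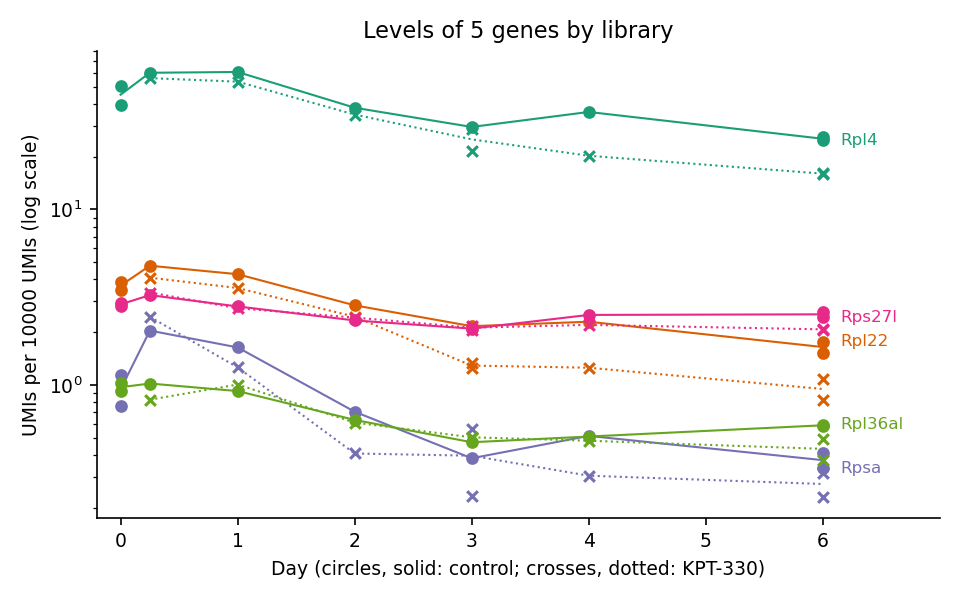
Level of Rpl4, Rps27l, Rpl22, Rpl36al and Rpsa in UMIs per 10000 (vertical axis, log scale) by day (horizontal axis), with circles and solid lines for control libraries and crosses and dotted lines for KPT-330 libraries, lines passing through the means of each day. Rpl4 and Rpsa peak by day 1 and end lower at day 6, whereas Rps27l stays between 2.06 and 3.37 in all 17 libraries.

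The other lists moved in the same fit as follows. Of 15 further mRNAs known for a TOP motif, 12 fell, with a median slope of -0.15 per day, steepest in Nap1l1, a histone chaperone, at -0.30, Npm1, a nucleolar chaperone, at -0.25, and the elongation factor subunit Eef1g at -0.20. Of 75 mitochondrial ribosomal protein genes, 60 fell with a median of -0.15. Among chaperones of single ribosomal proteins 3 of 7 fell, Grwd1, which escorts RPL3, most steeply at -0.24. Among 13 genes that control TOP translation 2 fell, Larp1 at -0.12 and Eif4ebp2 at -0.09. Of the ribosomal protein genes that the symbol rule misses, Fau, which encodes RPS30 as a fusion, fell at -0.23, and none of 2 tested rose.

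Cells were next sorted into classes by the summed share of marker genes per cell, with cuts chosen after the distributions had been seen: Paneth markers (Lyz1, defensins and others) at 500 per 10000 UMIs, enteroendocrine markers at 50, enterocyte markers at 100 and cycling markers at 20. This gave 6433 Paneth-marker, 1847 enteroendocrine-marker, 2713 enterocyte-marker and 3964 cycling-marker cells, and 4920 cells passed no cut. These are ranges of a score and not cell types. Cells within a factor of 2 of a cut were 8.46%, 4.36%, 5.19% and 15.5% of all cells for the 4 scores in that order, and 503 cells passed more than 1 cut and went to the class they exceeded most. Paneth-marker cells also carried goblet markers, at a median of 167 per 10000 UMIs against 4.63 in unclassed cells, and unclassed cells carried stem markers at 38.2. Median depth ranged from 3666 UMIs in enteroendocrine-marker cells to 7108 in enterocyte-marker cells.

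In untreated libraries with at least 20 cells of a class, ribosomal protein genes took 3.25% ± 0.481 (SD, n = 9) of UMIs in cycling-marker cells and 3.21% ± 0.571 (n = 9) in unclassed cells. The share was 2.28% ± 0.784 (n = 7) in Paneth-marker cells, 1.92% ± 0.955 (n = 9) in enterocyte-marker cells and 1.60% ± 0.429 (n = 6) in enteroendocrine-marker cells. The share was also taken with the Paneth, enteroendocrine, enterocyte and cycling markers all removed from the total of every class. Paneth-marker cells then stood at 2.68% ± 0.757, cycling-marker cells at 3.29%, enterocyte-marker cells at 1.98% and enteroendocrine-marker cells at 1.67%. The SDs hold the change over days as well as the spread between libraries.

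**Figure D4:**
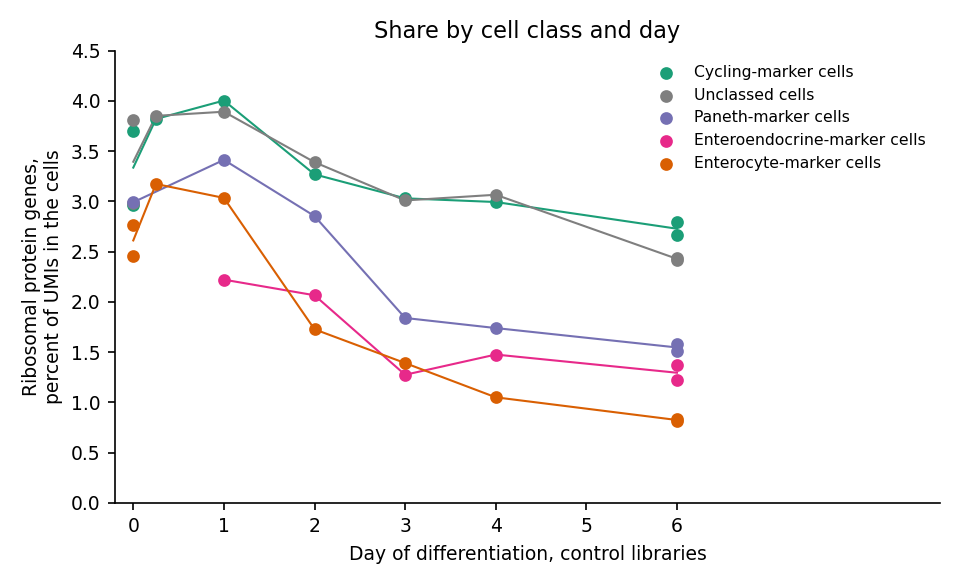
Percent of UMIs at the 88 genes (vertical axis) within each class of cells by day (horizontal axis) in control libraries with at least 20 cells of the class, with 1 point per library and lines through the means of each day. At day 6 enterocyte-marker cells lie lowest, at 0.833% and 0.815%.

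Against unclassed cells of the same libraries, enteroendocrine-marker cells had 61 of 74 members lower and 0 higher by edgeR, with library as a factor. Over all genes 24.0% were lower and 23.9% higher. No member reached an unadjusted p under 0.05 for a higher level, and DESeq2 called 58 lower and 0 higher (its share over all genes is not given). The median member stood at -0.88 (log2) against -0.02 for all genes. Rpl3, which sits beside the peptidyl transferase centre, ranged from 0.563 to 0.928 per 10000 UMIs (median 0.675, n = 6 libraries) against 1.28 to 2.06 (median 1.83) in unclassed cells. The ranges did not overlap, and the difference was -1.36 ± 0.11 (SE) with an adjusted p of 1.2e-07. Rps19, also among the smallest p, stood at -1.37. Members outside the core set were lower in 3 of 6 cases, among them Rps27l at -0.59, while Rps19bp1 (0.14) and Rps4y2 (0.18) did not pass.

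Enterocyte-marker cells had 34 of 71 members lower and 0 higher, where 38.7% of all genes were lower and 31.7% higher, and the median member stood at -0.41 against -0.14 for all genes. No member reached an unadjusted p under 0.05 for a higher level. DESeq2 called 50 lower and 0 higher, but its share over all genes is not given, so that count does not set the members apart. With edgeR, the share of members called was thus near that of all genes on the lower side and below it on the higher side. Rpl10a, the protein of the mobile L1 stalk, ranged from 0.0227 to 0.385 per 10000 UMIs (median 0.0741, n = 9) against 0.296 to 0.594 (median 0.364) and was lower in 9 of 9 libraries, at -1.59 ± 0.24 with an adjusted p of 3.9e-05 in edgeR. Rpl12, at the base of the acidic stalk, stood at -1.14 and Rps21, on the small subunit, at -0.77. None of the 6 tested genes outside the core set passed.

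Paneth-marker cells showed members in both directions, 8 of 77 lower and 6 higher, where 23.9% of all genes were lower and 21.8% higher. Rps27l ranged from 2.71 to 3.21 per 10000 UMIs (median 2.99, n = 7) against 1.91 to 3.09 (median 2.47) in unclassed cells and was higher in 7 of 7 libraries, although the ranges overlapped. Its difference was 0.80 ± 0.12 with an adjusted p of 1.2e-04 in edgeR, which centres the libraries on most genes rather than on total UMIs. Rpl36al (0.60), Rpl22l1 (0.58), Rpl41 (0.49), Rpl24 (0.43) and Rpl10 (1.04) were the others called higher, so 3 of the 6 were paralogs outside the core set. Of the lower ones, Rpl15 ranged from 0.105 to 0.320 against 0.290 to 0.778 and was lower in 7 of 7 libraries, at -0.95 ± 0.14. Rpl22 was at -0.48, so that it and its paralog Rpl22l1 were called in opposite directions in these cells, and Rps26 was at -0.40. Scaled to library totals instead, 60 members were lower (77.9%) and 1 higher in Paneth-marker cells, where 62.3% of all genes were lower and the median of all genes itself moved to -0.60.

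Cycling-marker cells differed little from unclassed cells, with 4 of 76 members lower and 2 higher against 21.9% and 18.8% of all genes. Rps9, on the small subunit near the mRNA entry channel, was lower in 9 of 9 libraries, at -0.16 ± 0.04 with an adjusted p of 0.0082 in edgeR, and Rps14 and Rpl3 stood at -0.13 and -0.16. Rpl7l1 was higher in 8 of 9 libraries, from 0.969 to 1.43 per 10000 UMIs (median 1.20) against 0.809 to 1.21 (median 1.01), at 0.20 ± 0.06, and Rps2, also near the entry channel, stood at 0.19. Neither of these was called with the lower marker cut or with DESeq2. Scaled to library totals, 0 members were lower and 7 higher (background 16.5% and 23.3%), so the lower calls depended on the scaling. By contrast, 39 of 73 mitochondrial ribosomal protein genes and 3 of 7 ribosomal protein chaperones were higher in cycling-marker cells, and 36 of 73 mitochondrial ones were higher in enterocyte-marker cells.

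**Figure D5:**
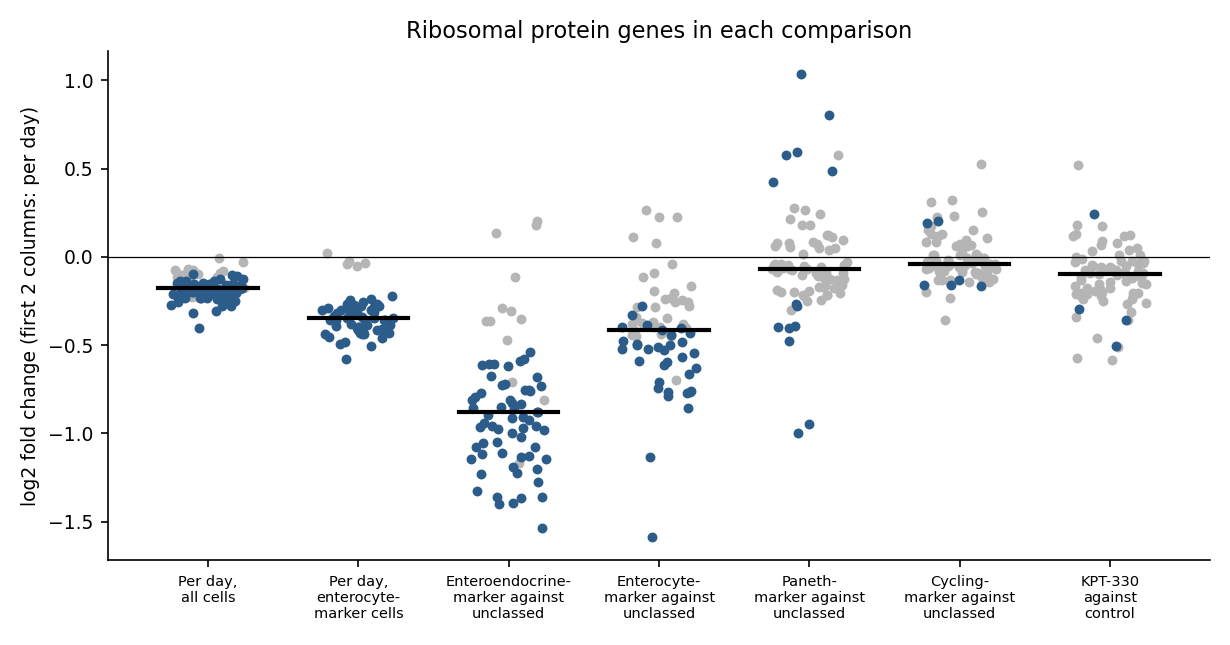
Difference of each tested member in 7 comparisons (vertical axis, log2 fold change, per day in the 2 left columns), with 1 point per gene, blue where the adjusted p was under 0.05 in edgeR and grey otherwise, and bars at the medians. The medians stand at -0.18 per day in all cells and -0.34 per day in enterocyte-marker cells, -0.88 in enteroendocrine-marker cells and -0.09 for KPT-330 against control.

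The course was also fitted inside each class, a fit added after the data had been seen. In enterocyte-marker cells 56 of 61 members fell per day, where 7.71% of all genes fell, and the median slope was -0.34. In unclassed cells 48 of 73 fell (background 15%, median -0.15), and in cycling-marker cells 27 of 72 (background 8.14%, median -0.11). In Paneth-marker cells 1 of 71 fell (background 0.701%, median -0.11), and 36 fell with library totals (background 8.71%). At an unadjusted p under 0.05, 30 of the 71 were lower and 0 higher, where 1439 of 9702 genes stood under it in either direction. In enteroendocrine-marker cells 3 of 64 fell (background 0.926%, median -0.12). Without the day 6 control library numbered 2 the count was 28 in unclassed cells (background 11.2%). In cycling-marker cells it was 3 of 75 in that fit (4.00%), near the 3.89% of all genes. It was 13 there without the day 0.25 library (background 6.50%) and 11 without the day 4 library (5.16%). The counts in Paneth-marker and enteroendocrine-marker cells ranged from 0 to 7 and from 0 to 8 over the libraries left out.

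The slope in enterocyte-marker cells was steeper than that in unclassed cells of the same libraries for 39 of 71 members and shallower for 0, by a test of the difference between the slopes in edgeR, where 5.10% of all genes were steeper. The median difference was -0.19 per day against -0.01 for all genes, and 1 member reached an unadjusted p under 0.05 in the other direction. The same test called 0 of 77 members steeper in Paneth-marker cells (background 1.50%), 0 of 76 in cycling-marker cells (1.47%) and 0 of 74 in enteroendocrine-marker cells (0.398%). At an unadjusted p under 0.05, 0 members were steeper in each, and 7, 17 and 0 were shallower in that order. Over all genes, 2083 of 11133, 1976 of 10962 and 1395 of 11307 stood under 0.05 in either direction. DESeq2 was not run on these differences. Scaled to library totals, 48 members were steeper in enterocyte-marker cells (background 8.67%). In Paneth-marker cells 4 of 77 were (5.19%), below the 13.9% of all genes. On the main scale 3 members had a shallower slope in cycling-marker cells (3.95%), where 4.01% of all genes did.

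In enterocyte-marker cells the members took 2.46% and 2.76% of UMIs at day 0, 3.17% at day 0.25, 3.04% at day 1, 1.73% at day 2, 1.39% at day 3, 1.05% at day 4, and 0.833% and 0.815% at day 6. The fall thus went on through day 6, while the share in unclassed cells was still 2.42% or more. The median level of the class's own markers was between 161 and 316 per 10000 UMIs to day 1 and between 341 and 422 from day 2 on, and the number of cells per library ran from 33 to 368. Whether the cells above the cut at early and late days are the same kind of enterocyte was not tested.

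Single genes in these cells followed the same course. Rps19 was at 3.89 and 4.00 per 10000 UMIs at day 0, 6.07 at day 0.25, 4.89 at day 1, 2.26 at day 2, 1.13 at day 3, 0.818 at day 4, and 0.892 and 0.482 at day 6. Each library from day 2 on lay below every earlier one, with a slope of -0.49 ± 0.06 per day and an adjusted p of 7.3e-05 in edgeR. Rps14, a small-subunit protein of the platform, was at 12.3 and 11.9 at day 0 and at 5.61 and 5.15 at day 6, with a slope of -0.22. Rps27l was at 2.10 and 1.95 at day 0 and at 2.34 and 1.78 at day 6, with a slope of -0.03 that did not pass (adjusted p = 0.64). Of the 61 tested, 5 members were not called, namely Rps27l, Rpl7l1 (-0.04), Rps19bp1 (-0.05), Rps4y2 (0.02) and Rpl24 (-0.02), and 4 of these lie outside the core set. By contrast, Rpl22l1 (-0.44) and Rpl36al (-0.28), both paralogs, fell. Of 70 mitochondrial ribosomal protein genes tested in the same cells 3 fell, with a median slope of -0.05, and 12 of 13 further TOP mRNAs fell, with a median of -0.24.

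The comparison of KPT-330 with control asked whether blocking XPO1 changed these mRNAs beyond the course itself. The share of UMIs was 3.79% in both libraries of day 0.25. It was 3.51% with KPT-330 and 3.75% in control at day 1, and 2.37% and 2.67% at day 2. At day 3 it was 1.84% and 1.49% against 2.11%, at day 4 1.26% against 2.13%, and at day 6 1.02% and 1.34% against 1.68% and 1.73%. From day 1 on every KPT-330 library lay below the control libraries of its day. Beside this, Paneth markers took 14.95% of UMIs with KPT-330 and 9.51% in control at day 4, and 17.7% and 17.8% against 11.5% and 11.7% at day 6, and cycling-marker cells were 1.09% to 3.29% of cells in the KPT-330 libraries of days 3 to 6 against 6.51% to 9.96% in control. Enterocyte-marker cells were 18.5% with KPT-330 and 9.55% in control at day 1, 37.9% and 25.7% at day 2, 27.8% and 31.1% against 9.63% at day 3, 12.3% against 3.43% at day 4, and 9.84% and 2.30% against 6.55% and 2.38% at day 6. Unclassed cells were 2.40% to 13.5% of cells with KPT-330 from day 3 on and 15.2% to 34.7% in control. Enteroendocrine-marker cells were 2.20% with KPT-330 and 3.97% in control at day 1, and 1.43% and 6.92% at day 2. They were 6.93% and 8.25% against 19.5% at day 3 and 10.9% against 15.1% at day 4. At day 6 they were 8.52% and 22.5% with KPT-330 and 19.9% and 18.6% in control. The part of these shifts in the lower share was not tested.

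With day as a factor over 15 libraries, 3 of 81 members were lower and 1 was higher with KPT-330 by edgeR, where 14.2% of all 12812 genes were lower and 14.4% higher. At an unadjusted p under 0.05 these counts were 9 and 2, where 5281 of all 12812 genes stood under it in either direction. The median member stood at -0.09 (log2) against 0.00 for all genes, and 64 of 81 were below 0. By day the median member differed by -0.10 at day 0.25, -0.06 at day 1, -0.02 at day 2, -0.03 at day 3, -0.38 at day 4 and -0.15 at day 6. DESeq2 called 5 lower and 0 higher. A block for each day and replicate number, in which 1 KPT-330 library of day 3 had no control partner, gave 9 lower and 1 higher. The shares of all genes called in these fits are not given.

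The members called lower were all of the large subunit, although the median difference was -0.15 for the small subunit and -0.09 for the large. Rpl30, which binds near the interface of the subunits, was at 1.21, 0.958, 0.720 and 0.760 per 10000 UMIs in the control libraries of days 3 to 6 and at 0.555, 0.656, 0.505, 0.414 and 0.462 with KPT-330. Per total UMIs the groups did not overlap at these days, but on that scale the median of all genes itself moved to -0.27. The scaling factors of edgeR were 0.707 to 0.898 in these KPT-330 libraries and 1.02 to 1.16 in these control libraries. Overlap on the scale of the fit was not examined. Rpl30 was lower with KPT-330 at 6 of 6 days, by -0.36 ± 0.08 with an adjusted p of 0.0082 in edgeR. Rpl22 was at 2.17, 2.30, 1.53 and 1.77 in the same control libraries and at 1.34, 1.25, 1.26, 0.820 and 1.08 with KPT-330, again without overlap per total UMIs. Its difference was -0.30 ± 0.08 with an adjusted p of 0.012 in edgeR. Rpl10a was at 0.304, 0.285, 0.193 and 0.349 against 0.104, 0.148, 0.171, 0.101 and 0.200, so that 1 KPT-330 library lay above the lowest control, and its difference was -0.50 ± 0.14 with an adjusted p of 0.0173. Both Rpl30 and Rpl22 stayed called in 15 of 15 fits that left out a library, and Rpl10a in 14, its adjusted p being 0.0828 without the day 3 control library.

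Rpl38, Rps15a and Rps18, whose starts are printed above, were lower at every day without passing (adjusted p = 0.0545, 0.0796 and 0.146 in edgeR). Rpl38, a large-subunit protein known for its part in translating Hox mRNAs, was at 0.628, 0.536, 0.797 and 0.663 in control at days 3 to 6 and at 0.579, 0.393, 0.393, 0.356 and 0.357 with KPT-330, where 1 KPT-330 library lay above the lowest control. The fitted differences were -0.34, -0.27 and -0.20 in that order, and all 3 passed with a block for each day and replicate number.

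Rpl5, which with Rpl11 and 5S ribosomal RNA binds the p53 regulator Mdm2, was the member called higher, at 0.24 ± 0.08 with an adjusted p of 0.0393 in edgeR. It stayed called in 4 of the 15 fits that left out a library. Per 10000 UMIs it was at 0.617 with KPT-330 and 0.462 in control at day 0.25, 0.364 and 0.356 at day 1, and 0.268 and 0.253 at day 2. The control libraries of days 3 to 6 were at 0.196, 0.237, 0.194 and 0.228 and the KPT-330 libraries at 0.192, 0.229, 0.197, 0.141 and 0.192. The level with KPT-330 was thus above control at the 3 early days and below it at days 4 and 6, with the 2 KPT-330 libraries of day 3 on either side of control. Rps27l was fitted at 0.18 ± 0.08, above 0 at every day, and did not pass (adjusted p = 0.10), with 2.10, 2.51, 2.62 and 2.44 in control and 2.18, 2.07, 2.21, 2.06 and 2.09 with KPT-330 at these days. For both genes the direction depended on the scaling. Scaled to library totals, the median of all genes moved to -0.27, the median member to -0.36, and 36 members (44.4%) were called lower and 0 higher, where 38.2% of all genes were lower, while Rpl5 stood at -0.02 and Rps27l at -0.09. The median member thus lay about as far below the median of all genes on either scale.

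Taken by themselves, the late days (3 to 6) had 8 members lower and 0 higher (background 13.6% lower), among them Rpl30, Rpl22, Rpl10a and Rps15, and the early days (0.25 to 2) had 0 in either direction (background 0.148% lower). The median member stood at -0.14 late and -0.06 early. In a test of the difference between late and early effects, whose median was -0.09 for members and 0.03 for all genes, edgeR called 0 of 81 members and 0.00% of all genes, with 1 member, Rps15, at an unadjusted p under 0.05, and DESeq2 called 0 members. Rps15 was not among those called over all days.

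Within classes, few members passed. In Paneth-marker cells Rpl30 (-0.41) and Rpl22 (-0.29) were lower, 2 of 75, where 5.11% of all genes were called in either direction. The count was 0 when a day 4 library was left out and 10 without the day 3 KPT-330 library numbered 1. The shares of all genes called in these 2 cases are not given, so these counts do not set the members apart. In unclassed cells Rpl30 (-0.42) and Rpl38 (-0.55) were lower, 2 of 75 (background 5.19%). In cycling-marker cells 0 of 70 passed in edgeR (background 0.291%), in enteroendocrine-marker cells 0 of 62 (1.95%) and in enterocyte-marker cells 0 of 65 (4.33%). DESeq2 called 0 members in each. At an unadjusted p under 0.05 in edgeR there were 5, 0 and 3 members in that order. Over all genes the counts under it were 843 of 9620, 1213 of 9245 and 1345 of 8471. Rpl30 was thus called over all cells, in Paneth-marker cells and in unclassed cells, which all share libraries.

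Around the members, KPT-330 moved few genes of the lists. Of the 15 further TOP mRNAs, Nap1l1 was lower at -0.28 (adjusted p = 0.0225, edgeR), and none was higher. Eif4ebp1, the mTOR target that holds back cap-dependent translation, was higher at 0.63 ± 0.14 (adjusted p = 0.0066), the 1 call among 13 genes of TOP control. None of 76 mitochondrial ribosomal protein genes and none of 7 chaperones passed in edgeR.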

How the data were processed

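Single-cell RNA-seq libraries (17) of mouse small intestinal organoids were analysed from the deposited tables, which hold whole-number UMI counts per gene and cell. Per the study's methods, the authors demultiplexed reads with bcl2fastq, aligned them to mm10 with STAR in a Drop-seq pipeline and collapsed UMIs. Treatment of reads that map to several genes is not given in the sources used here. The authors removed barcodes with few genes, many UMIs, a high mitochondrial share or low housekeeping expression, and doublets. Cells named in their merged quality-controlled table were kept here (19877 of 26229 barcodes). No column belonged to a sample outside the series.

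Counts were summed over the cells of each library, or of each class within a library (minimum 20 cells), since cells are not replicates. Sums were tested with edgeR 4.0.16 in R 4.3.3 (filterByExpr, TMM, quasi-likelihood, 2-sided, Benjamini-Hochberg over all genes tested, threshold 0.05). DESeq2 1.42.0 was an alternative, and its counts of members are given without its share over all genes. Standard errors were derived from the quasi-likelihood F statistic. The fit was tested on simulated counts with 200 changed genes. Summaries used Python 3.11.15 with numpy 2.4.6, pandas 2.3.3, scipy 1.17.1 and matplotlib 3.10.9. Depth was 3458887 to 12433109 UMIs per library, so members under 100 UMIs were mostly not testable. Promoters came from RefSeq (GRCm38.p6) and transcripts from GENCODE, with the shortest principal coding transcript per gene.

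Groups followed the labels. The comparisons were the slope over days in 9 untreated libraries, KPT-330 against control with day as a factor in 15, early against late effects, and classes against unclassed cells with library as a factor. Genes named in the text were paralogs with their core partners, the up to 6 members with the smallest p in each direction with KPT-330 that moved in the same direction at every day, the 4 steepest and 4 shallowest called slopes, the 4 highest and 4 lowest levels, and the 3 smallest p in each direction per class. Other genes named were chosen after their values were seen, among them Rpl24, Rpl13a, Rps15, Rpl22l1 and Rpl10 in Paneth-marker cells, and Rps14 and Rps19 in enterocyte-marker cells. Some genes that these rules pick are not reported here. The members and lists were chosen with earlier results of these data known. Class cuts, fits of the course within classes and the scaling to library totals were chosen after seeing the data. In the pairs of day 6, deviations of libraries with the same replicate number correlated at 0.37, but the labels do not say what the number marks. Libraries of the same group differed by far more than the sampling noise of UMIs (chi-square per degree of freedom of 11.2 to 31.8). Each library holds different cells, so this cannot show that libraries are independent samples. Each library was counted as a sample. The alternatives were DESeq2 size factors, library sizes without the members or the Paneth markers, all barcodes, no filter on low counts, other marker cuts, days or libraries left out, and the replicate number as a block.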

Additional observations from a re-analysis of the deposited data

Results flagged for a closer look

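Counts outside the comparisons are given as a value only. The 25 pseudogene symbols of ribosomal protein genes, which enter no comparison, carried 4507 UMIs in the kept cells. Members carried 2742690 UMIs in the same cells.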

How the results depend on the processing

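The fall over days kept its direction and most calls under every alternative run, with 47 to 67 members lower and 55 to 63 when a library was left out. The change in share from day 0 to day 6 was -1.56 percentage points, and ran from -1.90 with mitochondrial genes out of the total to -1.35 with Paneth markers out of it. KPT-330 calls were few and moved more. Against 3 members lower, no filter gave 8, DESeq2's Wald test 5, leaving out day 2 gave 6, and library totals 36, with 3 to 7 when a library was left out. With library totals 4900 of 12812 genes were lower. The block for each day and replicate number gave 9 lower and 1 higher. The 1 call higher was lost (0) with library sizes without the Paneth markers, with all barcodes, with no filter, with DESeq2, without each day in turn and with library totals, and ran from 0 to 2 over libraries left out. With library totals Rpl5 reversed to -0.0168 and Rps27l to -0.0905. The early against late test gave 1 call, Rps16, with no filter and 0 otherwise, also over all libraries left out.

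In Paneth-marker cells, 8 members lower became 15 with the higher cut, 13 with DESeq2 and 60 with library totals, where 6 higher became 1. With library totals 6933 of 11133 genes were lower there. Libraries left out gave 4 to 8 lower and 5 to 9 higher. In cycling-marker cells, 4 lower became 2 with DESeq2 and 0 with library totals, and 2 higher became 0 with the lower cut, 0 with DESeq2 and 7 with library totals, with 1 to 5 lower and 1 to 4 higher over libraries left out. In enterocyte-marker cells, 34 lower became 53 with the higher cut and 67 with library totals, with 24 to 42 lower and 0 to 1 higher over libraries left out. With library totals 6230 of 10571 genes were lower there. Enteroendocrine-marker cells stayed at 56 to 61 lower over libraries left out. Library totals moved the median of all genes by -0.27 with KPT-330, -0.60 in Paneth-marker and -0.65 in enterocyte-marker cells. Within classes, the course gave 52 to 56 in enterocyte-marker cells, 28 to 48 in unclassed, 3 to 29 in cycling-marker, 0 to 8 in enteroendocrine-marker and 0 to 7 in Paneth-marker cells over libraries left out, and library totals gave 36 in Paneth-marker and 11 in cycling-marker cells. The steeper slope in enterocyte-marker cells held for 31 to 39 members over libraries left out, and in Paneth-marker cells 0 became 4 with library totals and stayed 0 over libraries left out. KPT-330 calls in Paneth-marker cells ran from 0 to 10 and in unclassed cells from 1 to 2 over libraries left out, and the higher cut gave 1 in each. The causes of these changes were not tested. Where no share of all genes stands beside a count in this section, the count does not set the members apart from all genes. Most days have 1 library per condition, depth keeps 6 members out of the slope fit, and sequence shared with pseudogenes limits what a level means.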
